A study of Mus with 8 samples.

Results

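The nuclear genes for the mitochondrial oxidative phosphorylation machinery were followed across 8 arrays of mouse skin. Members were all genes with a single symbol that starts with Ndufa, Ndufb, Ndufc, Ndufs, Ndufv, Sdh, Uqcr, Cox4, Cox5, Cox6, Cox7, Cox8 or Atp5, without the Ndufaf genes. This rule found 79 of 14980 genes with a single symbol, and 77 of them were among the 11235 genes bright enough to be tested. By symbol, 34 belonged to complex I, 8 to complex II, 8 to complex III, 15 to complex IV and 14 to complex V. The names fit the label, apart from 5 members named as factors and not as subunits, namely Sdhaf1, Sdhaf2, Sdhaf3, Sdhaf4 and Atp5sl. Cox7a2l, counted with complex IV, is also known for a role in the assembly of respiratory supercomplexes. Ndufa4 is counted with complex I by its symbol, although it is known as a part of complex IV. The single-symbol probesets of Cox5b and Cox7b2 were too dim to be tested. Brighter probesets of Cox5b carry several symbols and were outside the rule. The subunits encoded in mitochondrial DNA were not analysed here.

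Skin with its hair follicles came from male C57BL6 mice that were 6 weeks old on arrival, in 4 groups of 5 mice each per the labels. After hair removal the skin received 1% minoxidil (a vasodilator used against hair loss, and the positive control), 1% keratin (the structural protein of hair), 1% microsphere keratin or MilliQ water alone (called untreated here) for 20 days. There were 2 arrays for each group, and the labels number them 1 and 2. Whether the arrays of a group came from separate mice, from pools or from repeat hybridisations is not stated, so any p-value measures only the spread between these arrays.

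Oxidative phosphorylation makes most of the ATP of an oxidative cell. Complex I takes electrons from NADH and complex II takes them from succinate, complex III passes them to cytochrome c, and complex IV hands them to oxygen. Complexes I, III and IV pump protons out of the matrix, and complex V, the ATP synthase, uses the returning protons to make ATP. These genes are expressed in nearly every cell and at high levels in striated muscle, which uses its own isoforms of some complex IV subunits. Mouse skin carries a thin sheet of striated muscle, the panniculus carnosus, beneath the dermis and fat.

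Minoxidil array 1 and untreated array 1 stood apart from the rest. Pearson's r over all probesets between minoxidil 1 and each of the other arrays was only 0.390 to 0.475, while it was 0.886 to 0.988 among the remaining 7. The control probeset for the 3′ end of beta-actin read 47.2 in minoxidil 1 and 656 in untreated 1, against 1448 to 1883 in the other 6 arrays. The probeset for the 3′ end of Gapdh read 196 in minoxidil 1, 298 in untreated 1 and 630 in keratin 1, against 1006 to 1605 in the other 5. The spiked hybridisation control BioB (3′ probeset) read 429 in minoxidil 1 and 738 in untreated 1, against 91.3 to 208 in the other 6 arrays. The part of these signs of array quality in the results was not tested. Every result below that sets a number 1 array against untreated skin rests on untreated 1, and the value in the number 2 arrays is therefore given as well. A difference within one number compares single arrays and has no replicate check. All 3 treatments are set against the same untreated arrays, so the differences from untreated skin are not independent of each other.

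The level of the whole group differed widely between arrays. The median log2 intensity of the 77 tested members was 5.35 and 8.07 in minoxidil 1 and 2, 7.34 and 7.96 in keratin 1 and 2, 7.69 and 7.54 in microsphere keratin 1 and 2, and 6.70 and 7.93 in untreated 1 and 2. The median of all genes tested ran only from 5.38 in minoxidil 1 to 5.78 in minoxidil 2. In minoxidil 1 both medians were nearly equal, and in the other 7 arrays that of the members was the higher one. In these bulk samples, fewer cells of a type and less RNA per cell cannot be told apart.

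**Figure D1:**
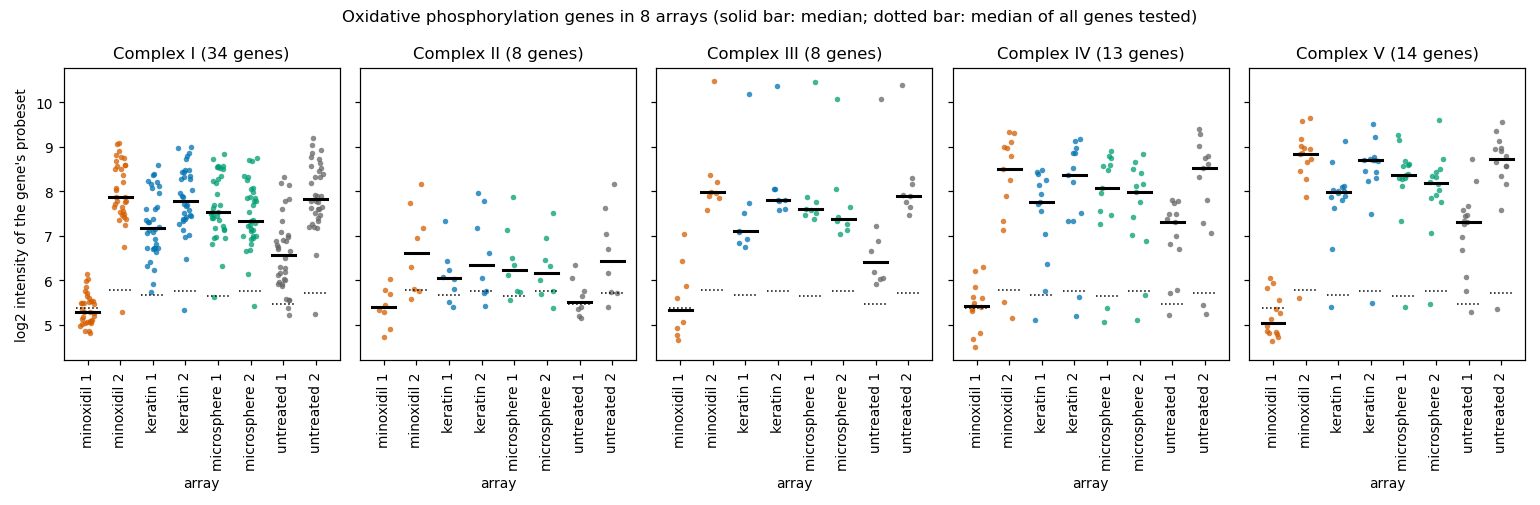
Log2 intensity of each tested oxidative phosphorylation gene (points) in the 8 arrays, with 1 panel per complex. Solid bars are medians of the complex and dotted bars medians of all genes tested. In minoxidil 1 the medians of the complexes lie between 5.06 and 5.43, and in untreated 1 every complex lies below its other arrays except minoxidil 1.

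The lowest arrays were the same in most members. Minoxidil 1 was the lowest array for 70 of the 77 members, against 51.5% of all genes. The exceptions were Cox6b2, Cox8c, Ndufa8, Sdhaf2, Sdhaf3, Sdhd and Uqcrc1. Among the other 7 arrays untreated 1 was the lowest for 71 members, against 58.8% of all genes. Minoxidil 2 was the highest of all 8 arrays for 46 members (14.2% of all genes) and untreated 2 for 15 members (7.1% of all genes). Within the groups, 76 members were lower in minoxidil 1 than in minoxidil 2 (74.1% of all genes), 70 were lower in keratin 1 than in keratin 2 (61.1% of all genes), and 75 were lower in untreated 1 than in untreated 2 (80.7% of all genes). Microsphere keratin went the other way, with 61 members higher in its array 1 than in its array 2 and a median difference of 0.20 on the log2 scale, while 60.3% of all genes were lower in its array 1.

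In each complex minoxidil 1 had the lowest median and untreated 1 the next lowest, with different ranges. Complex V had the widest, with medians of 5.06 and 8.85 in minoxidil 1 and 2, 7.98 and 8.70 with keratin, 8.38 and 8.19 with microsphere keratin, and 7.32 and 8.74 in untreated skin. Complex IV gave 5.43 and 8.51, 7.76 and 8.37, 8.09 and 7.98, and 7.30 and 8.52 in the same order of groups and arrays. Complex II, of which 4 of 8 members are assembly factors close to the array background, had the narrowest range, from 5.40 in minoxidil 1 to 6.63 in minoxidil 2. The lowest value of an array was 13.8 to 22.5. An additive background may thus have been left in, which would understate differences of dim probesets.

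The core subunits of complex I carry its flavin and iron-sulfur centres. Ndufs3, a core subunit of the peripheral arm, read 50.4 and 260.0 with minoxidil, 144 and 239 with keratin, 179 and 163 with microsphere keratin, and 71.8 and 238 in untreated skin. Ndufs8, a further iron-sulfur subunit, read 58.1 and 221 with minoxidil, 167 and 207 with keratin, 180.4 and 231 with microsphere keratin, and 105 and 237 in untreated skin. In both genes minoxidil 1 was the lowest array, untreated 1 came next and keratin 1 after it. For Ndufs8 this holds for the brightest probeset. A dimmer one was higher in minoxidil 1 than in untreated 1, by 0.43 on the log2 scale, and others of Ndufs8 gave -0.95 and -0.17. Ndufv2 and Ndufs7 went another way in 1 respect: untreated 1 was not the lowest array after minoxidil 1. This holds for their brightest probesets, and a dimmer one of each gene was higher in keratin 1 than in untreated 1, by 1.41 for Ndufv2 and 0.85 for Ndufs7 on the log2 scale. The brightest probeset of Ndufv2 read 34.2 and 386 with minoxidil, 269 and 358 with keratin, 373 and 326 with microsphere keratin, and 281 and 397 in untreated skin.

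In complex II the iron-sulfur subunit and both membrane anchors varied more over the arrays than the 4 assembly factors. Sdhb, the iron-sulfur subunit, read 38.9 and 287 with minoxidil, 162 and 249 with keratin, 236 and 183 with microsphere keratin, and 81.2 and 288 in untreated skin. Sdhc, a membrane anchor, read 30.0 and 145 with minoxidil, 65.7 and 145 with keratin, 90.3 and 88.5 with microsphere keratin, and 40.8 and 133 in untreated skin. A dimmer probeset of Sdhc was higher in minoxidil 1 than in untreated 1, by 0.43 on the log2 scale. Among the assembly factors Sdhaf2 ran from 50.01 to 56.4 over the 8 arrays and Sdhaf3 from 41.4 to 47.8, while Sdhaf1 and Sdhaf4 were lowest in minoxidil 1 and next lowest in untreated 1. Uqcrc2, a core protein of complex III, read 58.7 and 332 with minoxidil, 184 and 268 with keratin, 217 and 266 with microsphere keratin, and 119 and 316 in untreated skin. It was again lowest in minoxidil 1 and next lowest in untreated 1.

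The shared subunits of complex IV and the central stalk of complex V were also lowest in minoxidil 1 and next lowest in untreated 1. Cox4i1, the subunit 4 isoform of most tissues, read 74.6 and 511 with minoxidil, 304 and 464 with keratin, 389 and 287 with microsphere keratin, and 158 and 434 in untreated skin. Cox5a, a subunit that faces the matrix, read 25.6 and 641 with minoxidil, 217 and 564 with keratin, 360.0 and 339.8 with microsphere keratin, and 181 and 626 in untreated skin. Cox6b1, which joins the monomers of the complex, read 42.1 and 551 with minoxidil, 337 and 503 with keratin, 442 and 461 with microsphere keratin, and 222 and 522 in untreated skin. Cox5a was lower in both microsphere arrays than in the number 2 arrays of the other 3 groups, while Cox6b1 in microsphere keratin 2 differed less from untreated 2. Cox6c, a small subunit within the membrane, read 39.6 and 637 with minoxidil, 346 and 582 with keratin, 484 and 402 with microsphere keratin, and 221 and 677 in untreated skin. Atp5c1, the gamma subunit of the rotating stalk, read 29.1 and 459.7 with minoxidil, 262 and 419 with keratin, 409 and 241 with microsphere keratin, and 162 and 379 in untreated skin. Cox8c, whose expression is known from testis, read 43.2 and 45.9 with minoxidil, 54.7 and 49.2 with keratin, 41.5 and 51.0 with microsphere keratin, and 52.7 and 43.9 in untreated skin, all close to the array background. Cox8c did not share the order, and microsphere keratin 1 was its lowest array.

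No member passed the test in any comparison. Over all 8 arrays with 4 group means, limma called 0 of 77 members and 0 of 11235 genes (0 percent) at a Benjamini-Hochberg adjusted p under 0.05 for each treatment against untreated skin and for microsphere keratin against keratin. At an unadjusted p under 0.05 the fit gave 50, 46, 10 and 14 genes in these 4 comparisons, and none of them was a member. The median log2 difference of the members against untreated skin was -0.55 with minoxidil, 0.27 with keratin and 0.29 with microsphere keratin, and it was 0.02 between microsphere keratin and keratin. The medians of all genes tested were -0.02, 0.10, 0.10 and -0.01. The smallest two-sided p that an exact permutation test of a single value can reach with 2 arrays against 2 is 0.333.

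In microsphere keratin against untreated skin the array numbers opposed each other in most members. Within the number 1 arrays 75 of 77 members were higher with microsphere keratin, against 73.6% of all genes, with a median log2 difference of 1.08 beside 0.17 for all genes. Within the number 2 arrays 70 of 77 were lower, against 44.7% of all genes, with a median of -0.45 beside 0.02. In all, 69 members were higher in the first pair and lower in the second, a combination found in 33.9% of all genes. The median over both arrays, 0.29, therefore describes neither pair. It was -0.37 without untreated 1, 0.96 without untreated 2 and 0.19 without microsphere keratin 1.

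The catalytic core of complex V shows the size of this. Atp5b, the beta subunit that carries the catalytic sites of the ATP synthase, read 279 and 218 in microsphere keratin 1 and 2, against 68.0 and 323 in untreated 1 and 2. Both microsphere arrays lay between the untreated arrays. Its log2 difference between the number 1 arrays was 2.04, the highest of any member, and between the number 2 arrays it was -0.57. In limma it was 0.73 ± 1.30 (SE, n = 2 per group, adjusted p = 1). Atp5a1, the alpha subunit, read 382 and 298 with microsphere keratin, against 175 and 447 in untreated skin, and its pair differences were 1.12 and -0.58.

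Complex I, the entry point for NADH electrons, had the same shape in 33 of its 34 members. Its medians were 1.15 for number 1 and -0.45 for number 2. Ndufc1, an accessory subunit, read 364 and 255 with microsphere keratin, against 161 and 531 in untreated skin, and its difference of -1.06 was the lowest of any member in the number 2 pair. Ndufa3, another accessory subunit, read 369 and 322 with microsphere keratin, against 118 and 422 in untreated skin. Ndufs1, the large iron-sulfur subunit, read 113 and 122 with microsphere keratin, against 60.5 and 154 in untreated skin. Ndufv1, which binds NADH, read 185 and 236 with microsphere keratin, against 77.4 and 241 in untreated skin, so that its number 2 arrays hardly differed (-0.03). In all 4 genes the untreated arrays enclosed both microsphere arrays.

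Complexes II and III followed. Sdha, the flavoprotein of complex II that oxidises succinate, read 141 and 123 with microsphere keratin, against 66.3 and 197 in untreated skin. Uqcrfs1, the Rieske iron-sulfur protein of complex III, read 177 and 162 with microsphere keratin, against 60.3 and 237 in untreated skin. All 8 complex III members were higher in the number 1 pair (median 1.13) and all 8 were lower in the number 2 pair (median -0.46). Complex IV had medians of 0.99 and -0.50 in these pairs, and complex V had 1.05 and -0.57. Uqcrb, the ubiquinone-binding subunit, read 1399 and 1079 with microsphere keratin, against 1078 and 1350 in untreated skin, which gives log2 differences of 0.38 and -0.32. A second, dimmer probeset of Uqcrb gave 1.24 and -0.56, close to the medians of complex III.

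**Figure D2:**
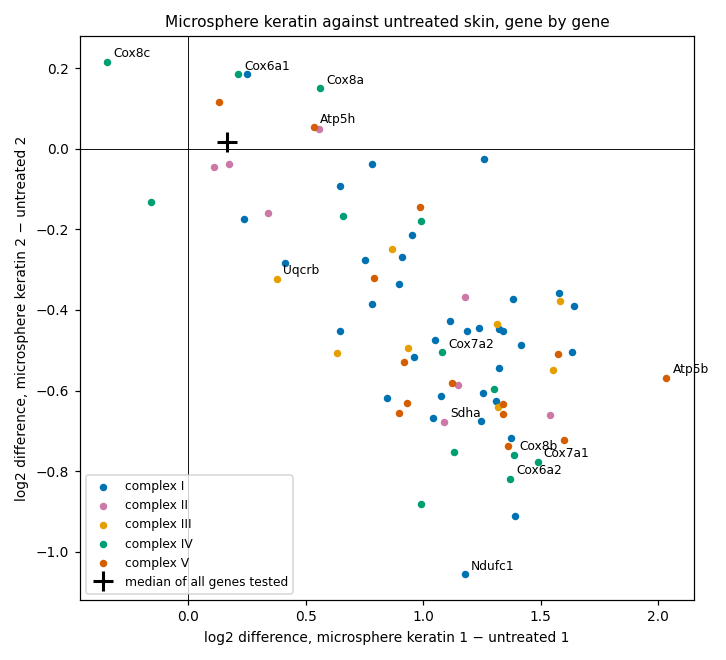
Log2 difference between microsphere keratin and untreated skin for each of the 77 tested members, in the number 1 arrays (horizontal axis) and the number 2 arrays (vertical axis), coloured by complex. Of the members, 69 lie to the right of 0 and below 0, and the cross marks the medians of all genes tested, 0.17 and 0.02.

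A few members lay outside this pattern. Both microsphere arrays were above both untreated arrays for 4 members (Atp5sl, Cox8a, Ndufa4l2 and Sdhaf1), against 14.7% of all genes. Both were below for 1 member, Cox6b2, against 5.24% of all genes. Read against these shares, the counts are no result about the members. Cox8a, the complex IV subunit 8 isoform of most tissues, read 188 and 173 with microsphere keratin, against 127 and 156 in untreated skin. Ndufa4l2, a hypoxia-induced relative of Ndufa4, read 49.5 and 42.9 with microsphere keratin, against 41.7 and 37.8 in untreated skin. Cox6b2, the testis isoform of subunit 6b, read 33.7 and 34.6 with microsphere keratin, against 37.6 and 37.9 in untreated skin, which is close to the array background.

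Microsphere keratin was also set against keratin, the same protein in another form, with no use of the untreated arrays. Within the number 1 arrays 70 of 77 members were higher with microsphere keratin, against 42.6% of all genes, with a median of 0.41 beside -0.03. Within the number 2 arrays 70 of 77 were lower, against 49% of all genes, with a median of -0.38 beside 0.00. The opposition held in 67 members, against 25.5% of all genes. Cox8b, a muscle isoform of complex IV subunit 8, had the highest difference in the number 1 pair: it read 272 and 217 with microsphere keratin, against 133 and 369 with keratin. Both microsphere arrays lay between the keratin arrays.

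Over both numbers the differences between microsphere keratin and keratin were small beside their errors. Their median of 0.02 was -0.25 without keratin 1, 0.31 without keratin 2, -0.08 without microsphere keratin 1 and 0.12 without microsphere keratin 2. The highest was that of Ndufs1, which read 113 and 122 with microsphere keratin, against 75.5 and 126 with keratin, a limma log2 difference of 0.26 ± 0.72 (SE, n = 2 per group, adjusted p = 1). The lowest was that of Cox7a2l, which read 177 and 119 with microsphere keratin, against 188 and 160 with keratin, a difference of -0.26 ± 0.66 (SE, n = 2 per group, adjusted p = 1 in limma). No member had both microsphere arrays above both keratin arrays, against 5.1% of all genes. Cox6b2 alone had both below, against 10.5% of all genes, at 33.7 and 34.6 with microsphere keratin and 34.7 and 36.7 with keratin.

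**Figure D3:**
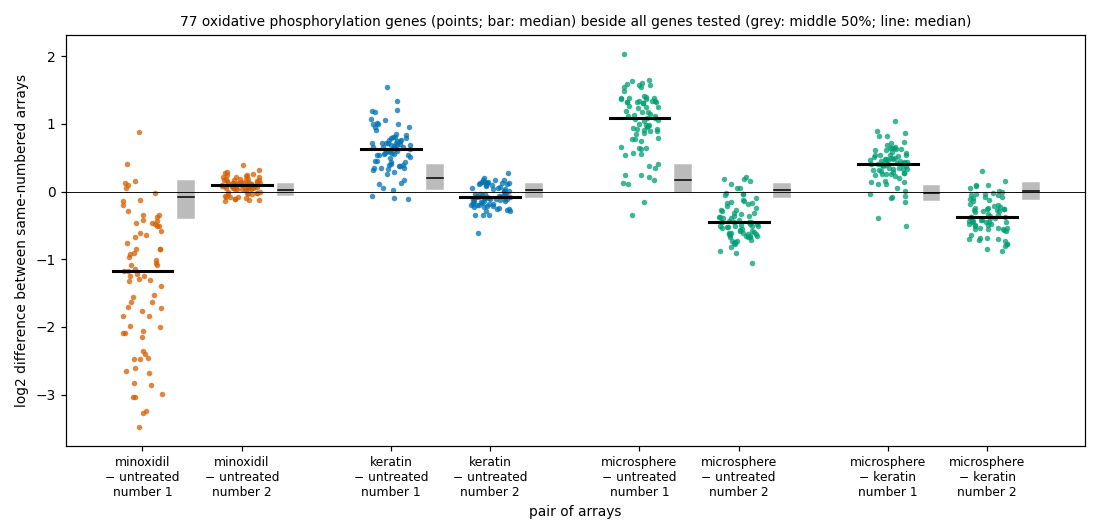
Log2 difference between same-numbered arrays for the 77 tested members (points, with the median as a bar), beside the middle 50% of all genes tested (grey) with its median. The medians of the members against untreated skin are -1.18 and 0.09 with minoxidil, 0.63 and -0.08 with keratin, 1.08 and -0.45 with microsphere keratin, and 0.41 and -0.38 for microsphere keratin against keratin.

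Keratin against untreated skin gave a difference in the number 1 arrays and little in the number 2 arrays. In the number 1 pair 74 of 77 members were higher with keratin, against 79.2% of all genes, with a median of 0.63 beside 0.19. In the number 2 pair 51 of 77 were lower, against 45.7% of all genes, with a median of -0.08 beside 0.02. Higher in the first and lower in the second were 48 members (35% of all genes), while 26 were higher and 3 were lower in both. Under quantile normalization 61 members were higher in the number 1 pair, against 54.4% of all genes, and the median was 0.22 beside 0.03. The median over both arrays, 0.27, was -0.37 without untreated 1, 0.95 without untreated 2, -0.01 without keratin 2 and 0.57 without keratin 1.

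Single members had the same shape. Atp5b read 199 and 354 with keratin, against 68.0 and 323 in untreated skin, and had the highest limma difference of any member, 0.84 ± 1.30 (SE, n = 2 per group, adjusted p = 1). Ndufa3 read 298 and 466 with keratin, against 118 and 422 in untreated skin, a difference of 0.74 ± 1.20 (SE, n = 2 per group, adjusted p = 1 in limma). Ndufb2, a further accessory subunit of complex I, read 148 and 173 with keratin, against 64.1 and 182 in untreated skin. In all 3 genes the keratin arrays overlapped the untreated ones, because untreated 2 was far above untreated 1. At the other end stood Ndufv2, an iron-sulfur subunit next to Ndufv1, with 269 and 358 with keratin, against 281 and 397 in untreated skin. That place depends on the probeset, since a dimmer one of Ndufv2 had a log2 difference of 1.41 in the number 1 pair, against -0.06 for the brightest.

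Both keratin arrays were above both untreated arrays for 5 members, Atp5sl, Cox7a2l, Cox8a, Ndufv3 and Sdhaf3, against 20% of all genes. Both were below for Cox6b2, against 5.23% of all genes. Cox7a2l read 188 and 160 with keratin, against 112 and 133 in untreated skin. Ndufv3, a small subunit of the NADH-binding module, read 333 and 347 with keratin, against 226 and 322 in untreated skin. Cox8a read 210 and 162 with keratin, against 127 and 156 in untreated skin. Here too the counts of separated members, set beside the shares of all genes, are no result about the members.

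Minoxidil against untreated skin turned on minoxidil 1. In the number 1 pair 71 of 77 members were lower with minoxidil, against 58.6% of all genes, with a median of -1.18 beside -0.08. In the number 2 pair 59 of 77 were higher, against 60.5% of all genes, with a median of 0.09 beside 0.03. Lower in the first and higher in the second were 54 members (39.1% of all genes). Complex V had the lowest median in the number 1 pair, -1.97 with all 14 members lower, and complex II the highest, -0.39 with 5 of 8 lower. Both were at 0.12 in the number 2 pair.

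Atp5h, a subunit of the ATP synthase stalk, read 38.3 and 802 in minoxidil 1 and 2, against 426 and 751 in untreated 1 and 2. The minoxidil arrays enclosed the untreated ones, and the limma difference was -1.69 ± 1.48 (SE, n = 2 per group, adjusted p = 1). Ndufs7, which carries the last iron-sulfur cluster of complex I, read 33.4 and 440 with minoxidil, against 322 and 464 in untreated skin. Cox6a1, the subunit 6a isoform of most tissues, read 22.7 and 306 with minoxidil, against 215 and 320 in untreated skin. These 3 had the lowest differences of all members, but only by their brightest probesets. In the number 1 pair these gave -3.48 for Atp5h, -3.27 for Ndufs7 and -3.24 for Cox6a1 on the log2 scale, and the second probesets gave -1.03, -1.74 and -0.58.

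Some members were higher with minoxidil in both pairs, by the brightest probeset. Sdhd, a membrane anchor of complex II, read 65.8 and 124 with minoxidil, against 35.9 and 104 in untreated skin, a limma difference of 0.57 ± 0.54 (SE, n = 2 per group, adjusted p = 1). Its other probeset, of similar brightness, was lower with minoxidil in both pairs, by log2 differences of -0.90 and -0.04. Uqcrc1, a core protein of complex III, read 86.3 and 250 with minoxidil, against 65.1 and 201 in untreated skin. Only Sdhaf2 and Sdhaf3, both assembly factors of complex II, had both minoxidil arrays above both untreated ones, against 7.52% of all genes, and no member had both below, against 4.34% of all genes. Sdhaf2 read 55.5 and 55.7 with minoxidil, against 50.01 and 53.3 in untreated skin. Sdhaf3 read 43.5 and 47.8 with minoxidil, against 42.1 and 42.5 in untreated skin.

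The minoxidil result changed direction with the array that was left out. Without minoxidil 1 the median difference of the members was 0.79. Without minoxidil 2, where minoxidil 1 alone stands for the group and is assumed to vary like the other groups, it was -1.98, and limma called 18 members, all lower. In that fit 5.06% of all genes were called lower. Without untreated 1 the median was -1.32, without untreated 2 it was 0.03, and without both minoxidil 1 and untreated 1 it was 0.09.

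In complex IV 3 subunits have a muscle isoform (Cox6a2, Cox7a1 and Cox8b) and an isoform of most tissues (Cox6a1, Cox7a2 and Cox8a). Cox8b is also expressed in brown fat. Cox6a2 read 49.2 and 507 with minoxidil, 245 and 462 with keratin, 433 and 252 with microsphere keratin, and 167 and 445 in untreated skin. Cox7a1 read 28.2 and 238 with minoxidil, 83.3 and 183 with keratin, 155 and 130 with microsphere keratin, and 55.2 and 223 in untreated skin. Cox8b read 48.8 and 365 with minoxidil, 133 and 369 with keratin, 272 and 217 with microsphere keratin, and 104 and 367 in untreated skin. The arrays fell into the same order for all 3: minoxidil 1, untreated 1 and keratin 1 were the lowest, the microsphere arrays came next, and the number 2 arrays of the other groups were the highest.

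That order is not particular to muscle isoforms: 48 of the 77 members had it, against 6% of all genes. It was taken from the 3 muscle isoforms, which are among the 48, and the 6% is not matched for brightness. Cox5a, Cox6b1 and Cox6c, which have no muscle isoform in the list above, also had this order. The 3 isoforms of most tissues did not share it. Cox6a1 read 22.7 and 306 with minoxidil, 355 and 296 with keratin, 249 and 364 with microsphere keratin, and 215 and 320 in untreated skin. Cox8a read 79.4 and 163 with minoxidil, 210 and 162 with keratin, 188 and 173 with microsphere keratin, and 127 and 156 in untreated skin. Cox7a2 read 58.2 and 446 with minoxidil, 283 and 331 with keratin, 380 and 279 with microsphere keratin, and 180 and 395 in untreated skin. Cox6a1 and Cox8a were thus brighter in keratin 1 than in keratin 2, whereas all 3 muscle isoforms were dimmer there, and Cox7a2 lay between.

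In the number 2 arrays the muscle isoforms were lower with microsphere keratin than in untreated skin by 0.82 for Cox6a2, 0.78 for Cox7a1 and 0.76 for Cox8b on the log2 scale. The isoforms of most tissues differed by 0.18 for Cox6a1, 0.15 for Cox8a and -0.50 for Cox7a2. In the number 1 arrays the muscle isoforms were higher with microsphere keratin by 1.37, 1.49 and 1.38, and Cox6a1, Cox8a and Cox7a2 by 0.21, 0.56 and 1.08. Under quantile normalization the number 1 difference of Cox6a1 turned to -0.18, and the other 11 of these 12 differences kept their direction under quantile normalization and under background subtraction. No limma difference of the 6 isoforms came near its threshold (adjusted p = 1 in all 4 comparisons). The difference between the isoform classes itself was not tested.

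**Figure D4:**
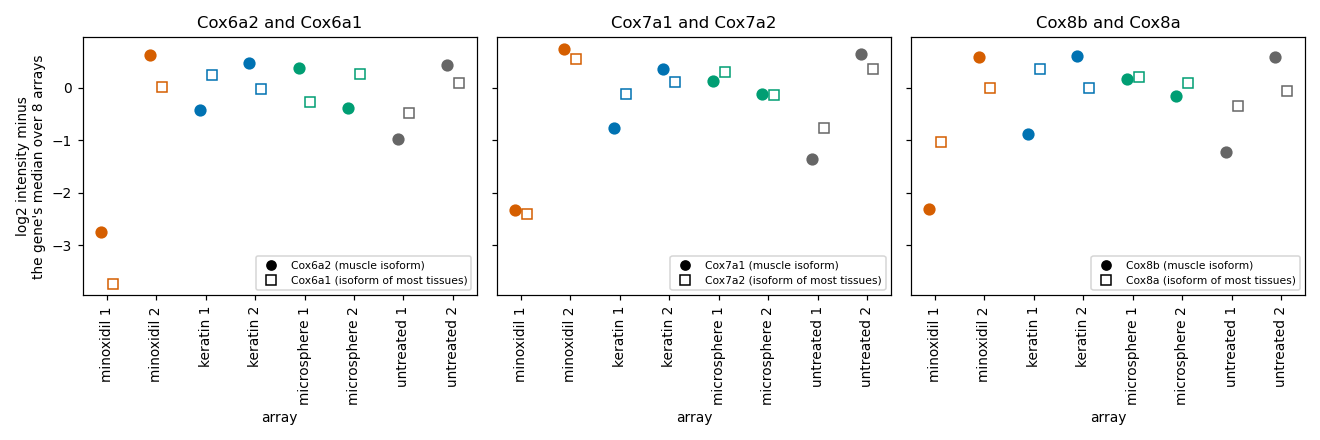
Log2 intensity of the 3 pairs of complex IV isoforms in the 8 arrays, each gene shown relative to its own median over the arrays. The muscle isoforms (filled circles) are low in keratin 1 and untreated 1 and high in the number 2 arrays of minoxidil, keratin and untreated skin, while Cox6a1 and Cox8a (open squares) are nearly level over the arrays other than minoxidil 1 and untreated 1.

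Most markers of skeletal muscle moved with the members. The summed intensity of 14 fast skeletal muscle genes was 510 and 26554 in minoxidil 1 and 2, 8926 and 23181 with keratin, 17981 and 14156 with microsphere keratin, and 5820 and 23026 in untreated skin. Acta1, skeletal alpha-actin, read 31.4 and 3353 with minoxidil, 909 and 2369 with keratin, 2054 and 1453 with microsphere keratin, and 353 and 2254 in untreated skin. In the number 2 arrays 13 of the 14 genes were lower with microsphere keratin (median -0.79), and in the number 1 arrays all 14 were higher (median 2.41). The 4 measured genes of slow or oxidative muscle had medians of -0.84 and 1.74 in these pairs. The other 4 of the 8 genes listed for that type were dim or not named. Among the fast muscle genes Myh1 differed, at 2146 and 1369 in untreated 1 and 2, and at 2273 and 1596 in keratin 1 and 2. Its 2146 is part of the sum of 5820 given for untreated 1. Most muscle genes, like the members, were thus high and low in the same arrays, and the part of muscle tissue in the result was not tested.

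Markers of other cells of the skin did not all share the pattern. Keratinocyte genes, 6 of 6 measured, had medians of 0.50 and -0.18 in the same pairs. Dermal fibroblast genes, 6 of 6, had 0.98 and 0.39, and all 6 were higher in both pairs. Genes of the hair shaft and follicle, 6 of 7, had 0.07 and 0.20. Ucp1, which defines brown fat, was not among the genes tested, so a level of brown fat was not measured. The 3 measured genes of the brown fat list other than Cox8b were Cidea, Elovl3 and Ppargc1a, the last also on the list of regulators. They summed to 101 and 178 with minoxidil, 134 and 108 with keratin, 138 and 122 with microsphere keratin, and 114 and 120 in untreated skin. The white adipocyte list, 2 of 5 measured, had medians of 0.30 and -0.23, the endothelial list, 2 of 3, had 0.15 and -0.13, and the leukocyte list, 2 of 3, had 1.23 and 0.13. Summed intensities of the white adipocyte, endothelial and leukocyte lists were at most 469.6 in any array.

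Other genes of mitochondrial metabolism differed in how far they followed the members. The citric acid cycle genes, which feed NADH and succinate to the chain, had medians of 0.72 (all 13 higher) and -0.45 (12 of 13 lower) in the number 1 and number 2 pairs when microsphere keratin was set against untreated skin. Mdh2, malate dehydrogenase, read 558 and 450 with microsphere keratin, against 363 and 647 in untreated skin. The list of electron carriers and exchange proteins, 11 measured genes, had medians of 0.98 and -0.41. Slc25a4, the ADP and ATP carrier of heart and muscle, read 953 and 759 with microsphere keratin, against 196 and 1304 in untreated skin. Slc25a5, the carrier of proliferating tissues, read 202 and 154 with microsphere keratin, against 147 and 148 in untreated skin. The muscle carrier had the array order of the muscle isoforms of complex IV, and Slc25a5 did not.

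Lists for the machinery that builds the chain had smaller medians. The 29 measured assembly factors had medians of 0.24 and -0.02 in the same pairs, and 71 mitochondrial ribosomal protein genes had 0.40 and -0.02, with 67 of 71 higher in the number 1 pair and 41 of 71 lower in the number 2 pair. Regulators of mitochondrial gene expression, 10 of 10 measured, had 0.29 and -0.02. Ppargc1a, a coactivator of mitochondrial biogenesis, read 47.5 and 38.0 with microsphere keratin, against 38.2 and 44.7 in untreated skin. In untreated 2 the median log2 intensity was 5.74 for assembly factors, 5.75 for regulators and 6.03 for mitochondrial ribosomal genes, beside 7.93 for the members. Cytosolic ribosomal genes were not dimmer, at 9.31. A background that may be left in would understate differences of dim probesets, and the part of brightness in these medians was not tested. For the 46 cytosolic ribosomal protein genes the medians were 0.57 and 0.03, and with minoxidil they were -3.18 and -0.09. In limma 0 genes of these 6 lists and of the marker lists were called in any of the 4 comparisons, and 1 of them, an assembly factor with minoxidil, had an unadjusted p under 0.05.

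**Figure D5:**
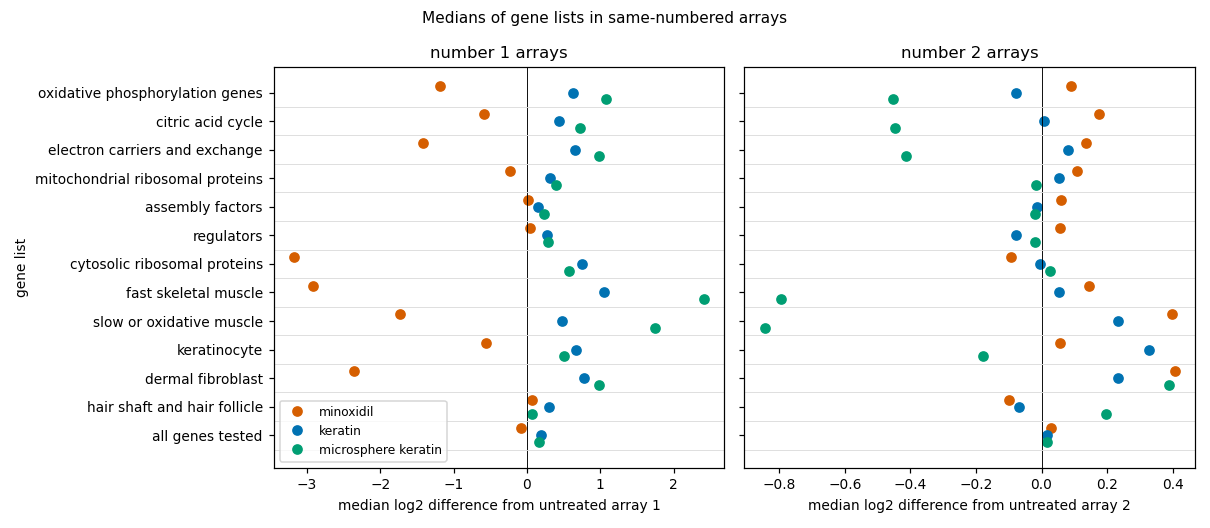
Median log2 difference from untreated skin of each gene list, in the number 1 arrays (left) and the number 2 arrays (right), for minoxidil, keratin and microsphere keratin. In the number 2 arrays the oxidative phosphorylation, citric acid cycle, carrier and muscle lists lie between -0.41 and -0.84 for microsphere keratin, and the ribosomal, assembly and regulator lists lie between -0.02 and 0.03. The assembly, regulator and mitochondrial ribosomal lists were dimmer than the members in untreated 2. A background that may be left in would understate differences of dim probesets.

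The members were also set beside genes of like brightness. Of the tested members 63 lay among the brightest 10% of genes. There the median difference for microsphere keratin against untreated skin was -0.51 for the members and 0.00 for all genes with number 2, and 1.12 and 0.48 with number 1. For microsphere keratin against keratin in the number 2 arrays it was -0.41 for the members and 0.02 for all genes. In the number 1 pair of minoxidil, by contrast, it was -1.40 for the members and -1.34 for all genes of that range, so the members there had values like those of other bright genes. It was 0.09 for the members and 0.03 for all genes in the number 2 pair of minoxidil. For keratin against untreated skin it was 0.66 for the members and 0.48 for all genes with number 1, and -0.09 and -0.02 with number 2.

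Other probesets of the same genes mostly had the direction of the brightest one. Of 53 such probesets, 51 and 48 did so for microsphere keratin against untreated skin (number 1 and number 2), 45 and 43 for keratin, and 42 and 38 for minoxidil. These probesets, which belong to 40 members, had a median of 1.11 in the number 1 pair of microsphere keratin against untreated skin, with 52 higher, and -0.32 in the number 2 pair, with 48 lower. Bright probesets that carry several symbols were outside the rule, since their signal could come from near-identical copies. Among them, a probeset of Cox5b, a complex IV subunit, read 700 and 548 with microsphere keratin, against 338 and 744 in untreated skin. A probeset of Atp5o, a stalk subunit of complex V, read 257 and 171 with microsphere keratin, against 103 and 250 in untreated skin.

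The authors' deposited tables compare single same-numbered arrays on a scale of their own and list probesets past a fold threshold. The lowest fold listed was 2.0 in the authors' deposited tables for number 1 described here and 1.3 in those for number 2. Counts are therefore not comparable between the numbers. Gene names came from these tables, so the probeset of each member was listed in at least 1 of them. The shares of all probesets given below include probesets that were never listed, and are no like background for the members. In the authors' deposited table for microsphere keratin against untreated skin, number 2, the kept probesets of 54 of 79 members were listed, 52 as lower and 2 as higher, while 7.71% of all probesets of the array were listed as lower. The lowest signed fold in the authors' deposited table was -2.39, for Ndufc1, and among the muscle isoforms it was -1.96 for Cox6a2, -2.10 for Cox7a1 and -1.89 for Cox8b. In the authors' deposited table for microsphere keratin, number 1, 70 members were listed, all as higher, against 18.6% of all probesets. Their median signed fold in the authors' deposited table was 15.4. That is a fold, not a log2 value, and it covers the 70 listed members only. The median of 1.08 in that pair is a log2 difference of all 77 tested members, so the sizes cannot be equated. In the authors' deposited table for keratin, number 1, 68 members were listed as higher and Sdhaf1 as lower, against 18.9% of all probesets listed as higher. The median signed fold of the higher ones in the authors' deposited table was 10.5, and that of Sdhaf1 was -2.36. In the intensities used here Sdhaf1 went the other way in that pair, with a log2 difference of 0.33. In the authors' deposited table for keratin, number 2, only 5 members were listed, 3 as higher and 2 as lower, against 9.46% of all probesets listed as higher and 8.42% as lower. In the authors' deposited table for minoxidil, number 2, 6 members were listed, all as higher, with signed folds of 1.32 to 1.59, against 7.92% of all probesets. The authors' deposited table that is named for minoxidil, number 1, carries microsphere columns, and of it only the gene names were used.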

How the data were processed

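Biotin-labelled RNA of 8 skin samples was hybridised to Affymetrix HT_MG-430_PM arrays, per the file headers. The submitters' processing notes name RMA, Transcriptome Analysis Console and Affymetrix Expression Console, without versions or order. The deposited value table holds linear intensity of 45141 probesets. How it was background-corrected and scaled between arrays is not given in the sources used here. The authors' deposited comparison tables hold log2 values of a treated and an untreated array and a signed fold, treated as a score. One such table holds p-values, deposited as 1 throughout. Gene names came from these tables, which list probesets past a fold of 1.3 or 2.0, so which genes have names depends on these same arrays. In RefSeq's gene table (GRCm38.p6) 77 of the 79 members were found by symbol and 2 by an older name.

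Log2 of the intensity was taken first, as the deposited values are linear. A gene was represented by its brightest probeset on average, and the 11235 genes whose mean reached the 25th percentile (intensity 35.2) were tested. The test was that of limma 3.58.1 under R 4.3.3 (lmFit, and eBayes with an intensity trend) with 4 group means over 8 arrays, Benjamini-Hochberg adjustment over all genes tested and a threshold of 0.05. It was also run on simulated data with independent values and a spread taken without minoxidil 1, which differs from the data tested here. Same-numbered differences are single-array differences of log2 values. Levels are intensities of a probeset and are not compared between genes, and the number of arrays limits the precision. No 2 arrays held identical values. Members named with values were the complex IV isoforms, core subunits of each complex, and the 3 members with the highest and lowest differences in each comparison, and 1 gene that this rule names is not reported here. Others in the text (Atp5o, Cox5b, Mdh2, Acta1, Ppargc1a, Slc25a4, Slc25a5, Ndufa4l2, Ndufc1, Ndufv3) were chosen after their values were seen. Members and gene lists were chosen with earlier results of these data known, so no list was tested. Alternatives covered scaling, background subtraction, filters, probesets averaged per gene, the variance model, array weights, the replicate number as a block, and arrays left out. Python 3.11.15 and matplotlib 3.10.9 drew the figures.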

Additional observations from a re-analysis of the deposited data

How the results depend on the processing

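No member was called under any alternative in any of the 4 comparisons with the exception of minoxidil without its array 2. The counts with 1 array left out ran from 0 to 18 for minoxidil and were 0 throughout for the others. The median log2 difference of the members with 1 array left out ran from -1.98 to 0.79 for minoxidil, -0.37 to 0.95 for keratin and -0.37 to 0.96 for microsphere keratin against untreated skin, and -0.25 to 0.31 for microsphere keratin against keratin. Without minoxidil 1 and untreated 1 together the medians against untreated skin were 0.089 with minoxidil, -0.37 with keratin and -0.37 with microsphere keratin, each with its direction turned, and without minoxidil 1 in the fit with the replicate number as a block the minoxidil median was 0.47. The cause of these turns was not tested. Under the other alternatives the medians kept their direction, at -0.65 to -0.44, 0.07 to 0.28, 0.09 to 0.33 and 0.01 to 0.02, with the lowest values for both keratin preparations under quantile normalization. That scaling brought the median of all genes in the number 1 arrays to 0.03 for keratin (0.19 as deposited) and 0.02 for microsphere keratin (0.17 as deposited). The members then were at 0.22 and 0.61, with 61 and 71 of 77 higher, and at -0.41 in the number 2 pair of microsphere keratin, with 68 lower. Subtracting each array's lowest value less 16 moved the median of all genes in the number 1 pair of minoxidil to 0.24 and left the members at -1.02. The medians of the 5 complexes kept their direction in every pair under both scalings. The labels do not say what a replicate number marks. The differences of number 1 minus number 2 correlated between groups at r = 0.11 to 0.59 over all genes, and with the replicate number as a block limma called 0 members in each comparison, the medians were those given above for all 8 arrays, and 119, 128, 69 and 38 genes had an unadjusted p under 0.05. Signal over background limits the dim members: without a filter all 79 entered the fit, and with a filter at the median 73 did.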
